A study of Homo sapiens with 6 samples.

Results

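The APOBEC genes encode cytidine deaminases, enzymes that turn cytosine into uracil in RNA or single-stranded DNA. Their expression was examined in Caco2 cells, a human colon cancer line used as a model of the absorptive cells of the intestine, before and after the cells had become resistant to methotrexate (MTX). MTX is an antifolate that blocks the supply of folate cofactors needed for nucleotide synthesis. RNA of parental, MTX-sensitive cells was hybridized to 3 Affymetrix HG U133 Plus 2.0 arrays, and RNA of resistant cells to another 3. The resistant cells had been obtained by raising the MTX concentration in steps and were able to grow in 10 µM MTX. Per the study's methods, the resistant cells were also kept with dialyzed serum and without glycine, hypoxanthine or thymidine, whereas Ham's F12 with undialyzed serum was used for the parental cells, so that MTX selection and medium cannot be told apart. Whether the resistant population was 1 clone is not stated. The family as defined here has 9 members, on an array whose single-symbol probe sets name 19775 genes: APOBEC1, APOBEC2, APOBEC3A, APOBEC3B, APOBEC3C, APOBEC3D, APOBEC3F, APOBEC3G and APOBEC3H. All probe sets that the platform annotation assigns to a member were taken, including those that list several symbols, which gave 10 of the 54613 probe sets on the array. The family was singled out with its values on these arrays already known, among them the low APOBEC3G signal of the resistant cells. Levels and differences of the members are therefore a description, and no test is given for them.

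APOBEC1, the founding member, edits a cytosine in the apolipoprotein B messenger RNA of the small intestine, together with an RNA-binding cofactor, and so shortens the protein that is made. APOBEC2 is found mainly in muscle. The APOBEC3 genes lie side by side in a cluster on chromosome 22, in the order APOBEC3A, 3B, 3C, 3D, 3F, 3G and 3H. They are part of innate immunity: APOBEC3D, 3F, 3G and 3H can be packaged into retroviral particles and deaminate the viral DNA as it is copied, and the HIV protein Vif counters them by sending them to degradation. APOBEC3A and APOBEC3B can also deaminate the cell's own DNA and are known as a source of mutations in tumors. Uracil left in DNA is removed by glycosylases and the base excision repair enzymes that follow them.

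The deposited signals were divided by the median signal of their array, which was 11.1, 12.8 and 11.3 on parental arrays 1 to 3 and 11.1, 10.6 and 11.5 on resistant arrays 1 to 3, and all levels below are in these units, times the array median. Differences are log2 values, resistant minus parental, with the standard error (SE) of the fit across all 26563 tested probe sets. Parental array 3 stood somewhat apart: its correlation with the other parental arrays was 0.946 to 0.949 and with the resistant arrays 0.935 to 0.939, while parental arrays 1 and 2 correlated at 0.966 with each other and at 0.914 to 0.929 with the resistant arrays. Of 8 markers of intestinal epithelium, 7 averaged at least the array median, with the transcription factor CDX2, at 0.319, as the exception. The summed level of these markers was 1456 to 1861 on the parental and 2203 to 2283 on the resistant arrays. Not all of them shared this rise. KRT8, KRT18, KRT20 and VIL1 were above all parental arrays on the resistant ones, beside 17.7% of all tested probe sets. CDH1, EPCAM, CDH17 and CDX2 overlapped. The sum weighs bright genes most, among them KRT18, KRT8 and KRT20, which averaged 750, 412 and 260 over all arrays. The labels do not tell if replicate samples were separate cultures, and the spread behind the p-values may thus be only technical. In bulk RNA, fewer cells that express a gene and less RNA per cell cannot be told apart.

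Signal was lower in resistant cells for APOBEC3G, for APOBEC3C and for the probe set that reads APOBEC3F and APOBEC3G together, while the groups overlapped for the bright APOBEC3B and for the other members, which were dim in both. Of the 10 probe sets, 8 named 1 gene and 2 named several, and 7 members were named by at least 1 of them. APOBEC2 and APOBEC3H had no listed probe set and are not analysed here. A mean of at least 1 array median was needed to enter the fit. Of the probe sets 7 met this, the dimmest of them that of APOBEC3A at 1.03, and 3 did not, the brightest of these a probe set of APOBEC3F at 0.889. The resistant arrays lay below all parental arrays for 3 of the 10 probe sets, all of them among the 7 tested, above them for 0, and overlapped them for the other 7. Over all tested probe sets these shares were 14.4% below and 17.7% above. Because the family was chosen on this contrast, nothing is read from the comparison.

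**Figure D1:**
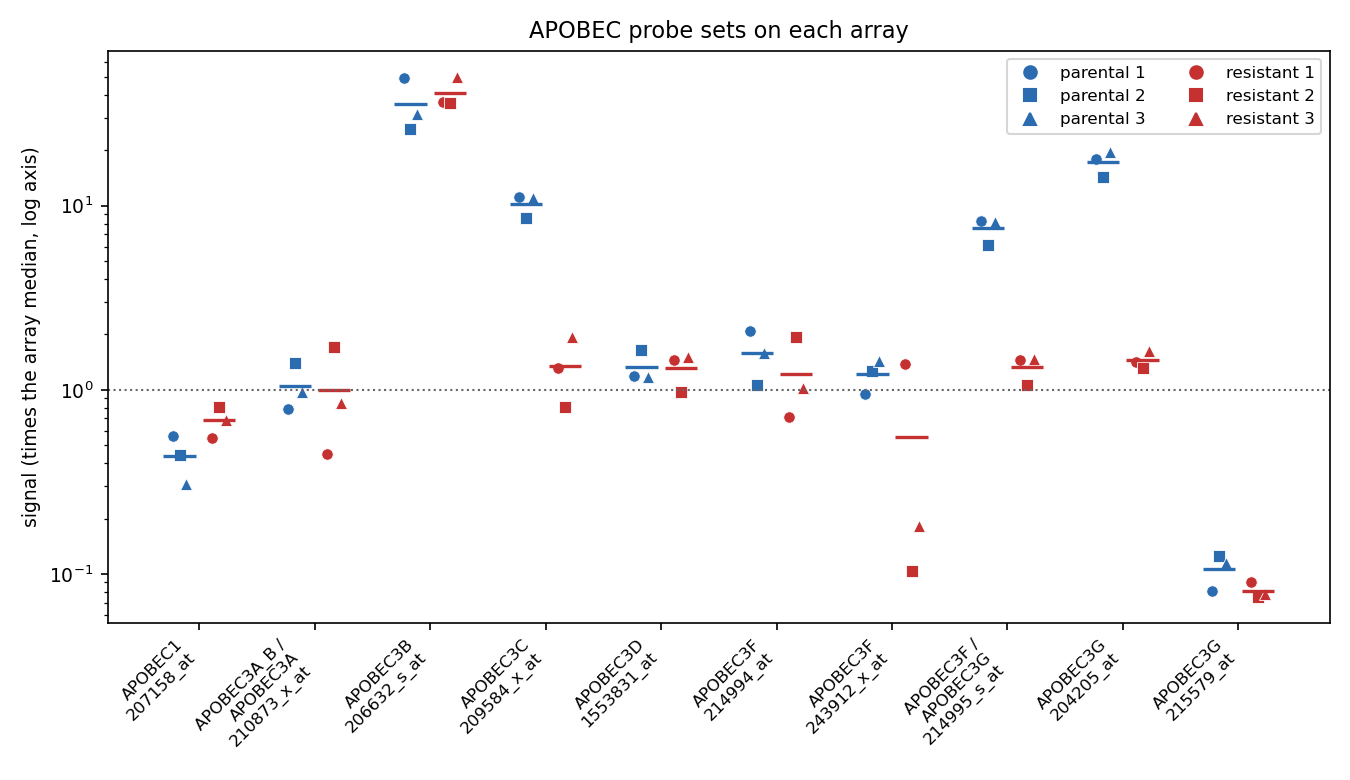
Signal of the 10 APOBEC probe sets on each of the 6 arrays, in times the array median on a log axis, with parental arrays in blue, resistant arrays in red and a bar at each group mean (n = 3). The dotted line marks the array median. The groups are separate for APOBEC3C, APOBEC3F/APOBEC3G and the brighter APOBEC3G probe set, with all resistant arrays at 1.95 or less, and overlap for the other 7.

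APOBEC3G, which restricts retroviruses that lack Vif and is known mainly from lymphocytes, was well above the array median in parental Caco2 cells. Its brighter probe set (204205_at) gave 17.9, 14.4 and 19.5 times the array median on parental arrays 1 to 3, and 1.41, 1.31 and 1.63 on resistant arrays 1 to 3. The groups were far apart, and the resistant arrays were only slightly above the median signal. The means were 17.3 ± 2.62 (SD, n = 3) in parental and 1.45 ± 0.165 (SD, n = 3) in resistant cells, a log2 difference of -3.56 ± 0.19 (SE), or 11.8-fold lower. Only 7 of the 11849 genes tested had a larger decrease. In the deposited units the signal was 199.0, 184.0 and 220.1 on the parental arrays against 15.7, 13.9 and 18.8 on the resistant ones. The other APOBEC3G probe set (215579_at) reported almost no signal on any array, with levels of 0.0755 to 0.125, and was not tested. With the 2 probe sets averaged, the difference of APOBEC3G was -1.97, because the dim one entered with equal weight.

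Blood cell markers were examined beside this result, since APOBEC3G is strongly expressed in lymphocytes. Of 15 such markers 13 had a probe set, 8 of these were below the array median on every array, and 3 (CD14, LAPTM5 and CD79A) averaged at least the median. PTPRC, which encodes the pan-leukocyte antigen CD45, averaged 0.341, and CD3G, a T cell receptor subunit, 0.125. The summed level of the list was 14.2 to 27.5 on the parental and 13.8 to 16.6 on the resistant arrays, so that the groups overlapped. Of the 13 markers 2 did separate the groups, both lower in resistant cells, beside 14.4% of all tested probe sets. That share covers only probe sets averaging at least 1 array median, as 3 of these markers did. LAPTM5, a lysosomal membrane protein of blood cells, was at 5.59, 4.21 and 3.10 on the parental and 2.34, 2.02 and 2.33 on the resistant arrays. CD3E, another T cell receptor subunit, was at 1.036, 1.29 and 1.42 on the parental and 0.378, 0.0377 and 0.844 on the resistant arrays. Of 6 fibroblast markers, 2 averaged at least the median (COL1A1 at 3.49 and LUM at 1.42), and their sum was 5.23 to 5.57 on the parental and 7.81 to 8.82 on the resistant arrays. LUM, which encodes a collagen-binding proteoglycan, and COL3A1 were above all parental arrays on the resistant ones, beside 17.7% of all tested probe sets. COL3A1 averaged 0.391 and would not have been tested at that level. LUM was at 0.198, 0.352 and 0.266 on the parental and 3.27, 2.92 and 1.504 on the resistant arrays. The part of such cells in the APOBEC3G difference was not tested.

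The probe set that lists both APOBEC3F and APOBEC3G (214995_s_at) moved the same way. It gave 8.23, 6.13 and 8.19 on the parental arrays and 1.46, 1.07 and 1.48 on the resistant arrays, with no overlap. The mean was 7.52 ± 1.199 (SD, n = 3) in parental and 1.33 ± 0.233 (SD, n = 3) in resistant cells, a log2 difference of -2.50 ± 0.23, or 5.64-fold lower. It cannot say which of the 2 genes gave the signal. The probe sets that name APOBEC3F alone were dim. APOBEC3F, another Vif-sensitive deaminase, had levels of 2.08, 1.06 and 1.59 on the parental and 0.712, 1.92 and 1.02 on the resistant arrays (214994_at), a log2 difference of -0.45 ± 0.45 with overlapping groups. Its other probe set (243912_x_at, not tested) gave 0.946, 1.27 and 1.44 on the parental arrays and 1.39, 0.104 and 0.183 on the resistant ones. The log2 difference there was -2.02, with overlapping groups. Resistant array 1 lay within the parental range there and the other resistant arrays well below it.

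APOBEC3C, a deaminase with a single catalytic domain that is known to act on retrotransposons and some simian viruses, was the other member with a large difference. Its levels were 11.2, 8.52 and 11.0 on the parental arrays and 1.32, 0.802 and 1.95 on the resistant arrays (209584_x_at). Resistant array 2 fell below the array median and resistant array 3 was highest of its group, yet all were far below the parental arrays. The mean was 10.2 ± 1.48 (SD, n = 3) in parental and 1.36 ± 0.574 (SD, n = 3) in resistant cells, a log2 difference of -3.00 ± 0.30, or 7.98-fold lower, and 21 of 11849 genes had a larger decrease. Probe sets of this type (x_at) contain probes shared with other transcripts. How much of the signal came from other APOBEC3 genes was not tested.

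APOBEC3B, a nuclear deaminase and a known source of mutations in tumors, was bright and did not share the lower signal of APOBEC3C and APOBEC3G. It gave 49.0, 26.1 and 31.3 on the parental arrays and 36.5, 36.1 and 50.1 on the resistant arrays (206632_s_at). The groups overlapped, with the resistant arrays within or just above the parental range. The mean was 35.5 ± 12.01 (SD, n = 3) in parental and 40.9 ± 7.95 (SD, n = 3) in resistant cells, a log2 difference of 0.24 ± 0.23.

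APOBEC3D and APOBEC3A were near the array median in both groups. APOBEC3D, also a target of Vif, gave 1.19, 1.64 and 1.17 on the parental and 1.46, 0.972 and 1.504 on the resistant arrays (1553831_at), a log2 difference of -0.03 ± 0.36. For APOBEC3A, the DNA-mutating deaminase of myeloid cells, the single probe set is shared with the fusion gene APOBEC3A_B (210873_x_at). It gave 0.784, 1.41 and 0.973 on the parental and 0.450, 1.71 and 0.843 on the resistant arrays, a log2 difference of -0.24 ± 0.57. Its sign turned without resistant array 1, when the difference was 0.23. That of APOBEC3D turned without parental array 2 or resistant array 2, at 0.13 and 0.17. APOBEC1, the apolipoprotein B editing enzyme, was below the array median on every array, at 0.559, 0.445 and 0.310 in parental and 0.5496, 0.811 and 0.687 in resistant cells (207158_at, not tested), and the groups overlapped. The log2 difference of APOBEC1 was 0.66.

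The genes on both sides of the cluster were compared next, to see how far along chromosome 22 the lower signal reached. The 12 nearest tested genes on each side were taken in the gene order of RefSeq, and the brightest probe set stood for a gene. Of these 24 neighbors, 0 were changed at an adjusted p below 0.05 (limma with Benjamini-Hochberg adjustment), where 12.4% of all genes tested were changed in either direction. At an unadjusted p below 0.05 there were 3 (KDELR3, SUN2 and RPL3, against 30.8% of all genes). The unmoderated per-gene test called 0, but it called only 1.62% of all genes. The resistant arrays lay below all parental arrays for 4 neighbors and above them for 4, where 15.2% and 20.2% of all genes did so. The median difference of the neighbors was 0.01, beside 0.02 over all genes and 0.00 over the 283 tested chromosome 22 genes outside the family. Of those 283 genes, 0.707% were lower and 4.59% higher past the threshold. The neighbors differed in brightness, with mean levels in parental cells from 0.875 for NPTXR to 383 for RPL3. For the dim ones, such as NPTXR, TAB1 (1.33) and CACNA1I (1.39), a decrease may not show.

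Next to the cluster on the APOBEC3A side, 3 genes were measured. DNAL4, a dynein light chain, differed by -0.43 ± 0.29 (limma adjusted p = 0.364, 95% interval -1.07 to 0.21). NPTXR, a neuronal pentraxin receptor, differed by 0.54 ± 0.58 (limma adjusted p = 0.591, -0.76 to 1.84). CBX6, a chromobox protein of Polycomb complexes, differed by 0.04 ± 0.15 (limma adjusted p = 0.899, -0.30 to 0.38). On the APOBEC3H side, CBX7, a related Polycomb protein, differed by 0.46 ± 0.27 (limma adjusted p = 0.298, -0.13 to 1.05). PDGFB, a growth factor, differed by -0.43 ± 0.25 (limma adjusted p = 0.306, -0.99 to 0.13), and by 0.73 with all its probe sets averaged. RPL3, a ribosomal protein, differed by 0.20 ± 0.09 (limma adjusted p = 0.185, 0.00023 to 0.39). The probe sets of PDGFB and RPL3 are of the type with shared probes. The signs of NPTXR, CBX6, PDGFB and RPL3 each turned under at least 1 setting. None of these intervals reached the differences measured for APOBEC3C and APOBEC3G. Only 21 of 11849 genes had a larger decrease than APOBEC3C, and the family was chosen on these values. Nothing is therefore read from this comparison. Among the 24 neighbors the lowest bound was that of SYNGR1, a synaptic vesicle protein, with a difference of -1.05 ± 0.49 (limma adjusted p = 0.204, -2.14 to 0.05). KDELR3, a receptor that retains proteins in the endoplasmic reticulum, came nearest to the threshold at 0.64 ± 0.18 (limma adjusted p = 0.0507), and SUN2, a nuclear envelope protein, followed at -0.72 ± 0.22 (limma adjusted p = 0.068).

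The result for the neighbors depended on parental array 3. Without it 5 of the 24 passed the threshold, with 4 lower (ATF4 by -0.63, DNAL4 by -0.76, JOSD1 by -0.49 and SUN2 by -0.81) and 1 higher (KDELR3 by 0.75), when 32.2% of all genes were called. In that setting no called neighbor differed by as much as 1 on the log2 scale. SYNGR1, at -1.05 with all arrays, was not among those called.

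**Figure D2:**
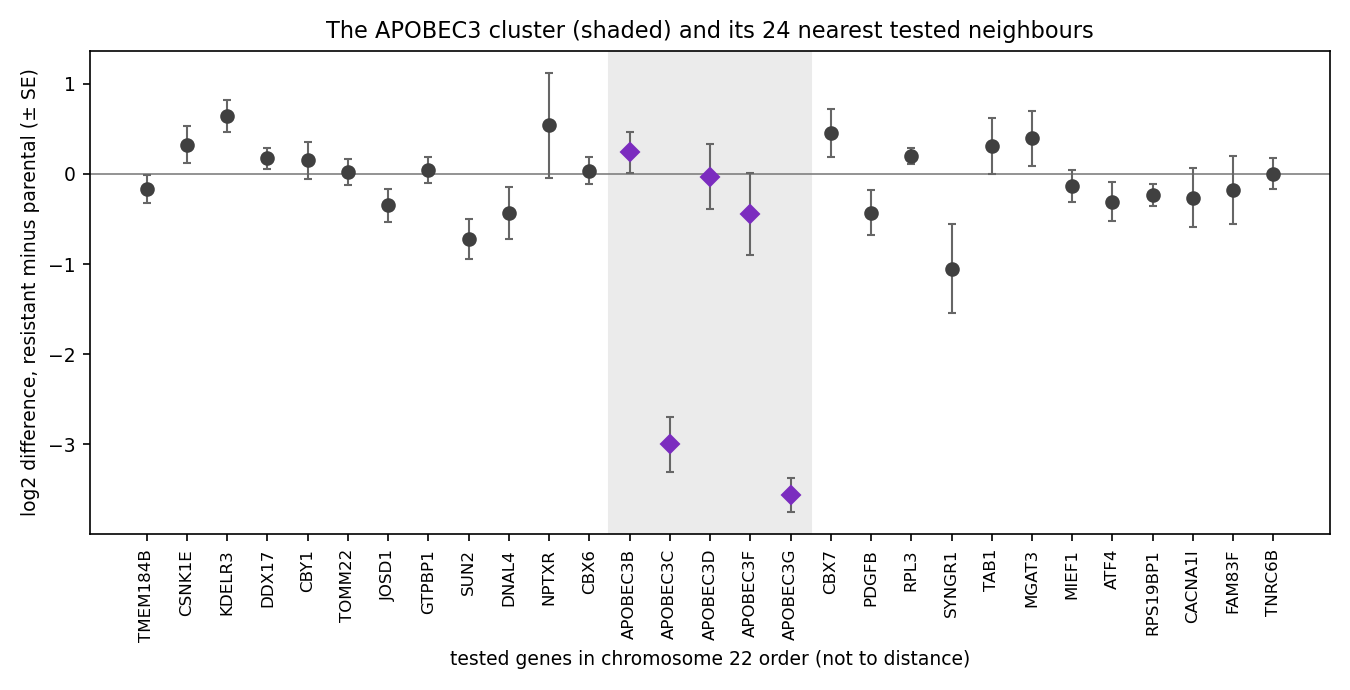
Log2 difference, resistant minus parental, with its SE for the tested members of the APOBEC3 cluster (purple diamonds on a shaded band) and the 12 nearest tested genes on each side (black circles), in chromosome 22 gene order and not to distance. APOBEC3C at -3.00 and APOBEC3G at -3.56, on whose values the family was chosen, stand below the 24 neighbors, which lie between -1.05 and 0.64. APOBEC3B, APOBEC3D and APOBEC3F lie within the range of the neighbors. APOBEC3D and APOBEC3F were already dim in parental cells, at 1.33 and 1.58 times the array median, so that a decrease may not show.

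Genes that work with the APOBEC enzymes or in the same processes were then examined as 7 lists of 72 tested genes, counting each gene once. Of these, 13 were higher and 1 lower past an adjusted p of 0.05 and 58 did not pass it, beside 7.37% higher and 5.05% lower over all genes tested. The median difference was 0.17, against 0.02 over all genes. The only gene of the lists that was lower past the threshold was IFI16. Most of these calls depended on the array left out: the 14 called genes became 6 to 9 without any array but parental array 3, and 24 without parental array 3 (18 higher, 6 lower).

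The partners of APOBEC1 in RNA editing had 5 tested genes of 7, with 0 past the threshold (limma) and a median of 0.15. At an unadjusted p below 0.05 there were 2 (against 30.8% of all genes), and by the unmoderated test 0 (against 1.62%). A1CF, the complementation factor that brings APOBEC1 to its target, gave 2.05, 1.02 and 1.26 on the parental and 1.59, 1.25 and 0.270 on the resistant arrays, a difference of -0.77 ± 0.66 (limma adjusted p = 0.494). Its low mean rests on resistant array 3, and without that array the difference was 0.030. RBM47, an RNA-binding protein that can replace it, differed by 0.44 ± 0.14 (limma adjusted p = 0.079) in its brightest probe set. That probe set passed the threshold only without parental array 3 (adjusted p = 0.00163). Of the 5 tested probe sets of RBM47, however, 1 was called higher with all arrays. The mRNA that is edited, APOB, and the regulator CELF2 were below the filter on low signal.

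The deaminases outside the family were measured as a pair of lists. Of 7 genes for adenosine deaminases of RNA, which change adenosine to inosine, 5 were tested, 1 was higher, 0 were lower and the median was 0.36. ADAT2, a subunit of the tRNA wobble deaminase, was at 1.90, 1.59 and 2.65 on the parental and 4.17, 4.39 and 3.51 on the resistant arrays. It was 2.00-fold higher (log2 1.00 ± 0.25, limma adjusted p = 0.0317), in 1 of its 2 probe sets, and lost the call without any 1 of the arrays other than parental array 3 (adjusted p = 0.078 to 0.127). ADARB1, an editor of neuronal messages, differed by -0.59 ± 0.29 (limma adjusted p = 0.222). Of 5 other cytidine deaminases 3 were tested and 0 passed the threshold (limma), with a median of 0.24. At an unadjusted p below 0.05 there were 2 (against 30.8% of all genes), and by the unmoderated test 0 (against 1.62%). CDADC1 differed by -0.55 ± 0.24 (limma adjusted p = 0.173) in its brightest probe set. That probe set was called only without parental array 3 (difference -0.83, adjusted p = 0.00332). Of the 3 tested probe sets of CDADC1, however, 1 was called lower with all arrays. CDA, which deaminates free cytidine in nucleotide salvage, differed by 0.41 ± 0.18 (limma adjusted p = 0.184).

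Removal of uracil from DNA, the step after deamination, was covered by 13 genes, all of them tested. Of these 3 were higher, 0 lower and 10 not past the threshold, with a median of 0.10. FEN1, the flap endonuclease of long-patch repair and of replication, was at 47.4, 36.2 and 101.2 on the parental and 151.6, 133.9 and 145.7 on the resistant arrays, 2.57-fold higher (log2 1.36 ± 0.30, limma adjusted p = 0.0211). DUT, the dUTPase that keeps uracil out of DNA, was at 84.0, 70.0 and 152.8 on the parental and 194.3, 209.0 and 187.5 on the resistant arrays, 2.04-fold higher (log2 1.03 ± 0.24, limma adjusted p = 0.025, a probe set with shared probes). PARP1, a sensor of DNA strand breaks, was at 20.8, 13.8 and 27.3 on the parental and 39.6, 42.3 and 36.9 on the resistant arrays, 1.99-fold higher (log2 0.99 ± 0.22, limma adjusted p = 0.0221). In all 3 genes parental array 3 was the highest of its group and all resistant arrays were above all parental arrays. FEN1 and DUT lost the call without any 1 of the arrays other than parental array 3 (adjusted p = 0.0501 to 0.0894 for FEN1 and 0.0639 to 0.104 for DUT), and PARP1 without parental array 1 or any resistant array (0.0602 to 0.101). The main uracil glycosylase, UNG, differed by 0.66 ± 0.20 (limma adjusted p = 0.0589).

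Antiviral restriction factors, to which APOBEC3G belongs by function, had 23 tested genes of 26, with 6 higher, 1 lower, 16 not past the threshold and a median of 0.19. IFI16, a sensor of foreign DNA, was the gene that was lower. It gave 68.2, 62.7 and 40.8 on the parental and 18.9, 18.0 and 29.1 on the resistant arrays, 2.60-fold lower (log2 -1.38 ± 0.23, limma adjusted p = 0.00639), and all 3 of its probe sets were called the same way. The IFI16 probe set with these values is of the type with shared probes. ISG20, an interferon-induced exonuclease, was at 21.7, 17.1 and 7.96 on the parental and 37.9, 32.7 and 46.4 on the resistant arrays, 2.69-fold higher (log2 1.43 ± 0.32, limma adjusted p = 0.0216), a call lost without any 1 of the resistant arrays (adjusted p = 0.0636 to 0.0979). OASL, a relative of the oligoadenylate synthetases, was at 45.6, 43.0 and 31.2 on the parental and 75.2, 74.9 and 92.5 on the resistant arrays, 2.04-fold higher (log2 1.03 ± 0.17, limma adjusted p = 0.00506). MX2, a GTPase that blocks HIV at the nucleus, was at 40.5, 32.7 and 35.2 on the parental and 58.5, 69.2 and 86.5 on the resistant arrays, 1.96-fold higher (log2 0.97 ± 0.16, limma adjusted p = 0.00604).

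The remaining antiviral genes that were higher are OAS1 (1.89-fold, limma adjusted p = 0.00182), the GTPase MX1 (1.79-fold, limma adjusted p = 0.00177) and the RNA-activated kinase EIF2AK2 (1.33-fold, limma adjusted p = 0.0444, in 1 of its 3 probe sets). EIF2AK2 lost the call without any 1 of the arrays other than parental array 3 (adjusted p = 0.0685 to 0.173). Other factors known to restrict retroviruses, singled out after their values were seen, did not pass, with differences of -0.09 for TRIM5, which binds the capsid, 0.19 for SAMHD1, which depletes nucleotides, and 0.41 for BST2, which tethers particles to the cell (limma adjusted p = 0.0982). The largest decrease in this list that did not pass was that of SERINC5, at -0.40 (limma adjusted p = 0.0779), with all resistant arrays below all parental arrays. IFI16, OASL, MX2, OAS1 and MX1 kept their calls whichever array was left out.

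Interferon receptors and their signal transducers had 13 tested genes of 15, with 1 higher, 0 lower, 12 not past the threshold and a median of 0.17. IFNGR1, the ligand-binding chain of the interferon gamma receptor, was at 38.1, 39.1 and 49.2 on the parental and 81.8, 79.3 and 88.9 on the resistant arrays, 1.99-fold higher (log2 0.99 ± 0.14, limma adjusted p = 0.00211), in 2 of its 3 probe sets. IL10RB, a chain shared by the receptors of interleukin 10 and interferon lambda, gave 8.10, 7.77 and 8.13 on the parental and 4.16, 4.38 and 6.45 on the resistant arrays, a difference of -0.71 ± 0.20 (limma adjusted p = 0.0508). It passed without parental array 3 (adjusted p = 0.0324) or resistant array 3 (0.0368), after quantile normalization (0.0379), with no further scaling (0.048), with a filter at 3 array medians (0.0431) and with an offset (0.0477), and the list then had at least 1 gene lower. Regulators described for APOBEC3 genes had 11 tested of 12, with 2 higher, 0 lower, 9 not past the threshold and a median of 0.05. E2F1, a transcription factor of the cell cycle, was at 8.30, 4.58 and 6.02 on the parental and 13.4, 10.01 and 16.7 on the resistant arrays, 2.14-fold higher (log2 1.10 ± 0.25, limma adjusted p = 0.0248), in 1 of its 2 probe sets. It lost the call without parental array 2 or resistant array 1 or 3 (adjusted p = 0.0715 to 0.108), and with both probe sets averaged (difference 0.82, adjusted p = 0.056). PRKCA, the protein kinase C isoform through which phorbol esters raise some APOBEC3 transcripts, was at 4.23, 3.24 and 4.30 on the parental and 6.87, 6.85 and 7.34 on the resistant arrays, 1.80-fold higher (log2 0.85 ± 0.18, limma adjusted p = 0.0181), in 1 of its 2 probe sets. Its call was lost without any 1 of the resistant arrays (adjusted p = 0.0728 to 0.0823), and with both probe sets averaged (difference 0.44, adjusted p = 0.474). The NF-kappa-B subunits RELB and NFKB2, each at 0.05, and NFKB1, at -0.24, did not pass.

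**Figure D3:**
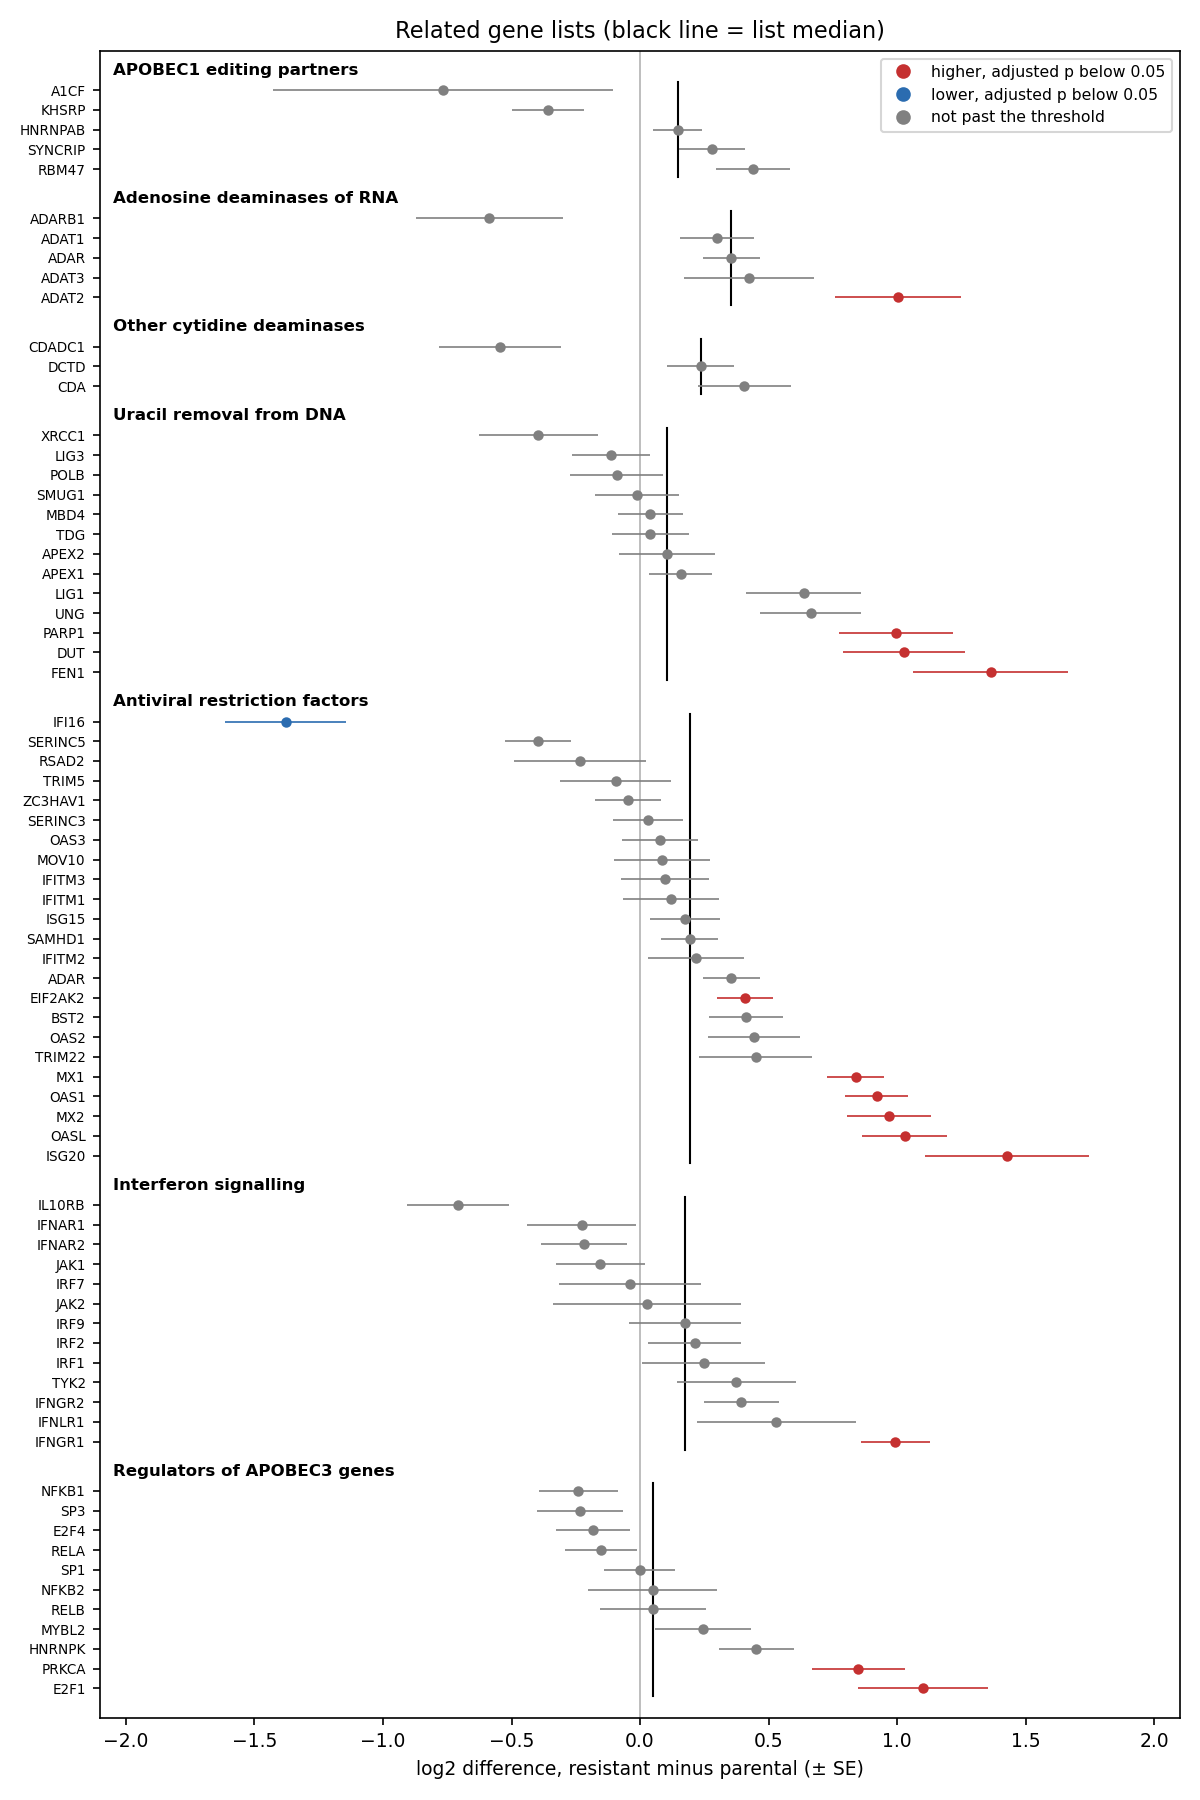
Log2 difference, resistant minus parental, with its SE for each tested gene of the 7 related lists, 1 row per gene and a black line at each list's median, with ADAR in 2 lists. Red marks genes that were higher and blue the gene that was lower at an adjusted p below 0.05. The list medians lie between 0.05 and 0.36, and IFI16 at -1.38 is the gene called lower.

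Genes whose pattern over the 6 arrays was most like that of APOBEC3G were found by the root mean square (RMS) distance between log2 values, each gene centered on its own mean. Among 11848 other genes the nearest were PMEPA1 at 0.294, XIRP1 at 0.324, VGLL1 at 0.350, TRIP6 at 0.350 and APOBEC3C at 0.401 (RMS, log2 units over the 6 arrays). These distances describe the choice and carry no test. Since the 6 arrays form 2 groups, genes with a decrease close to that of APOBEC3G come first by this measure. PMEPA1, a membrane protein that dampens TGF-beta signaling, gave 72.5, 99.7 and 104.2 on the parental and 7.03, 9.72 and 9.70 on the resistant arrays, a difference of -3.38. XIRP1, an actin-binding protein of striated muscle, gave 2.53, 2.00 and 1.79 on the parental and 0.144, 0.226 and 0.252 on the resistant arrays, a difference of -3.37 with all resistant arrays under the array median. VGLL1, a cofactor of TEAD transcription factors, gave 25.8, 29.1 and 30.4 on the parental and 3.21, 3.25 and 4.64 on the resistant arrays, a difference of -2.96. TRIP6, a LIM domain protein of focal adhesions, gave 16.8, 9.90 and 17.5 on the parental and 1.58, 2.01 and 1.76 on the resistant arrays, a difference of -3.01. APOBEC3C, the other member of the family with a large difference, was the fifth nearest of all genes, with the limit on its shared probes given above.

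**Figure D4:**
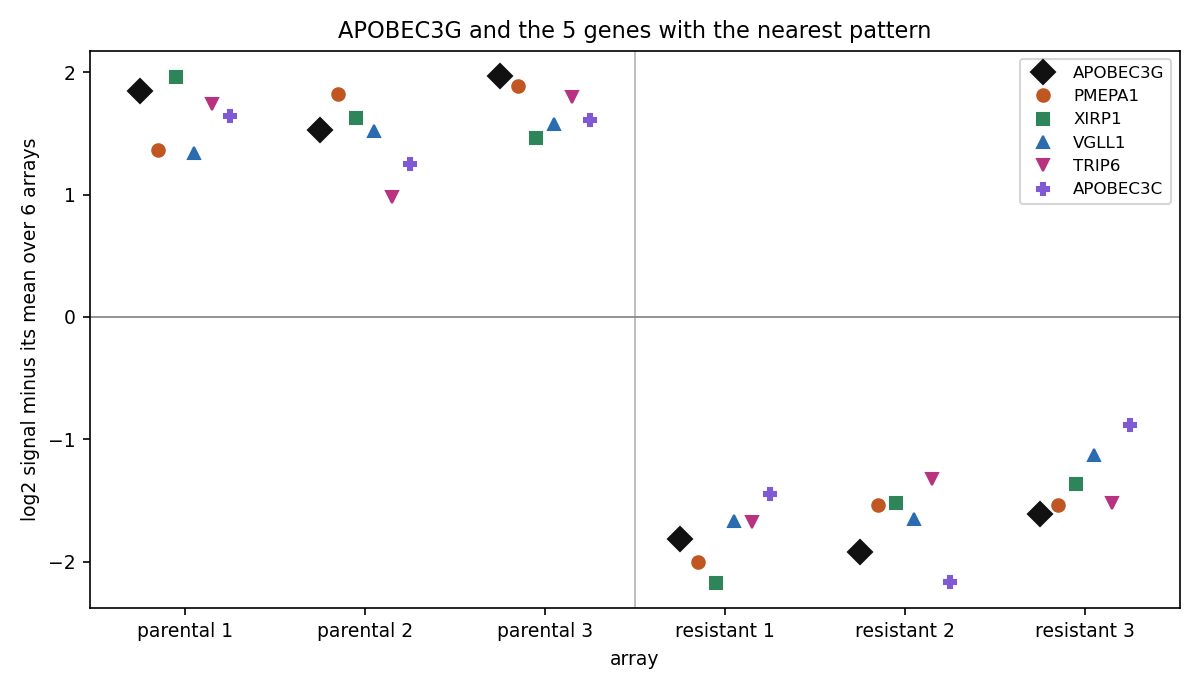
Log2 signal of APOBEC3G and the 5 genes nearest to it in pattern on each of the 6 arrays, each gene centered on its mean over the arrays. All 6 genes are above their mean on the 3 parental arrays and below it on the 3 resistant arrays, and APOBEC3C spreads most among the resistant arrays.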

How the data were processed

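Expression was measured on 6 HG U133 Plus 2.0 arrays of total RNA, 3 of parental and 3 of MTX-resistant Caco2 cells, grouped by sample title. Linear intensities, 1 for each array and probe set, were deposited by the authors. According to the submitters' processing notes MAS5 was used; version, scaling and detection calls are not given in the sources read. No pair of arrays held identical values. After removal of 62 control probe sets, each intensity was divided by its array median and log2 transformed, with zeros set to 0.05. Those averaging 1 array median or more over all arrays were tested (26563 probe sets) with limma 3.58.1 in R 4.3.3 (lmFit, eBayes with intensity trend, two-sided, Benjamini-Hochberg adjustment over all of them), after a check on simulated data. The number of arrays limits the precision. With 3 arrays a group, exact permutation p-values end at 0.1 and were not used. Symbols came from the platform annotation, updated through RefSeq GRCh38.p14. Of the probe sets 41091 had 1 symbol, 1801 several and 11721 none listed, and 41037 matched RefSeq. No coordinates are given, since the files name no build.

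The members and gene lists were chosen with earlier results of these data known. Some planned list genes are not reported here. Named were all members with a probe set, the neighbors (with values for those called and the 3 nearest on each side), up to 4 called genes of each list with the largest difference (with fewer than 2 called, the 2 largest as values) and the 5 genes nearest in pattern. OAS1, MX1, EIF2AK2, UNG, TRIM5, SAMHD1, BST2, SERINC5, RELB, NFKB1, NFKB2, SYNGR1, KDELR3, SUN2, ATF4, JOSD1, TAB1 and CACNA1I were given values after these had been seen. Alternatives covered scaling (quantile or none), the filter (none or 3 array medians), low signals (raised to the 25th percentile, or an offset of 0.5 array medians), the variance model (without trend, or an unmoderated per-gene test), a replicate block, a 2-fold threshold, averaging a gene's probe sets, and leaving out each array.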

Additional observations from a re-analysis of the deposited data

How the results depend on the processing

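The APOBEC3G difference of -3.56 was -3.18 with an offset of 0.5 array medians and -1.97 with the mean of all probe sets. APOBEC3C ranged from -3.30 to -2.57, APOBEC3B from 0.05 to 0.50, APOBEC3D from -0.14 to 0.17 and APOBEC3A from -0.73 to 0.23. APOBEC1, below the array median on every array, ranged from 0.34 to 0.86. APOBEC3F ranged from -1.23 (its probe sets averaged) to -0.12 for 214994_at, and from -3.13 to -0.89 for 243912_x_at. The number of family probe sets with resistant below all parental arrays was 3 to 5 with an array left out (5 without resistant array 1, when fewer arrays have to be separate). Over all probe sets, the 2663 changed became 1202 without the intensity trend, 319 by the unmoderated test, 1240 with a 2-fold threshold and 874 to 7118 with an array left out. Higher calls were 57.4% of these, and 46.7% with no further scaling, where the median of all tested probe sets was -0.08. The 0 called neighbors became 1 with no further scaling (SUN2), a filter at 3, low signals raised, the offset or the mean of all probe sets (KDELR3), and 0 to 5 with an array left out. The 14 called list genes became 7 without the trend, 7 with a 2-fold threshold, 8 with the mean of all probe sets and 6 to 24 with an array left out. By the unmoderated test they became 0, where that test called 1.62% of all genes. Signs turned for APOBEC3A and APOBEC3D, as their ranges show, and for NPTXR (-0.0031 without parental array 3, up to 0.83 with another array left out), CBX6 (-0.045 with no further scaling, -0.10 with the mean of all probe sets, -0.075 to 0.11 with an array left out, lowest without resistant array 3), PDGFB (0.73 with the mean of all probe sets), RPL3 (-0.0044 after quantile normalization) and A1CF (-1.25 to 0.030 with an array left out, highest without resistant array 3). The cause was not tested.

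Replicate numbers did not pair the samples: the deviations of same-numbered arrays correlated at -0.02 in each pair. With the replicate number as a block, 2093 probe sets were changed, 13 list genes were called, ADAT2 and EIF2AK2 were not, and 0 neighbors were.

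No detection calls were used, so dim signals, among them those of APOBEC1, 3A, 3D and 3F, are not told apart from background. Probe sets with shared probes can read other transcripts, and the arrays give no count of molecules.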
